A study of Mus musculus with 18 samples.

Results

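The genes described here are 9 regulators of brain regions, Six3, Rax, Lhx2, Emx2, En1, En2, Wnt1, Gbx2 and Irx3, which were taken by name from the 25239 genes of the count table. All 9 passed the filter on low counts, as did 16582 genes in all. They were followed by RNA-seq through mouse E14Tg2a ESCs that were turned into EpiLCs (epiblast-like cells, made with Activin A and Fgf) and then cultured as floating aggregates in GK15 medium. Aggregates given the cytokines BMP4, BMP8a, SCF, LIF and EGF form PGCLCs (primordial germ cell-like cells), and those without cytokines were the comparison. There were 9 groups of 2 replicates. The 4 wild-type groups were EpiLCs, cells in the absence of cytokines on days 2 and 6, and PGCLCs (in the presence of cytokines) on day 6, and the 5 TKO groups were EpiLCs and cells in the absence or the presence of cytokines on each of these days. TKO cells (Tet1-/-, Tet2-/-, Tet3-/-) lack the coding sequences of the TET enzymes, which oxidise methylated cytosine, and come from 1 CRISPR/Cas9 clone, so the genotype cannot be told apart from that clone. The wild-type PGCLCs were sorted for SSEA1 and CD61 according to the study's own description, whereas all other aggregates were taken whole, so each comparison with them also sets sorted against unsorted cells. ESCs, and wild-type aggregates kept for 2 days with cytokines, were not analysed here.

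The vertebrate brain is divided along its length by transcription factors that are each switched on in a band of the neural plate, and by secreted WNT and FGF proteins made where these bands meet. Six3, Rax, Lhx2 and Emx2 are homeobox factors of the forebrain and eye field, En1, En2 and the ligand Wnt1 mark the midbrain and its border with the hindbrain, and Gbx2 sets the hindbrain side of that border. Irx3 is expressed from the posterior forebrain back through the hindbrain and spinal cord. Several of these genes are also used elsewhere, since Gbx2 is expressed in pluripotent cells as a target of LIF and STAT3, and En1 marks a class of spinal interneurons.

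Total counts were between 11286050 and 41257861 per library. The Tet genes were read beside the genotype, which the authors established by PCR genotyping and by RT-qPCR in ESCs. Their knockout removed the sequence between the start and stop codons, and counts per gene do not separate the exons outside it. These counts therefore cannot test the genotype by themselves, and they did not mark it in every pair of groups. Tet3 was lower in TKO cells than in wild-type cells in all 4 pairs of groups of the same day and medium. Tet1 passed as lower in EpiLCs and with cytokines but not without cytokines, where it read 998 and 737 normalised counts in TKO cells and 1304 and 595 in wild-type cells at day 6, and Tet2 passed as lower only at day 6. Normalised counts are counts divided by DESeq2 size factors. Every adjusted p below comes from the quasi-likelihood test of edgeR, adjusted over all genes tested, and ± marks the SE of a log2 fold change (n = 2 libraries a group). A gene passed the test at an adjusted p below 0.05. No pair of replicates agreed within sampling noise.

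In the wild-type cells without cytokines Irx3, Lhx2, En1, Emx2 and Wnt1 were all higher at day 6 than in EpiLCs. Irx3 and Lhx2 were so in both replicates to a like degree, and Wnt1, En1 and Emx2 much more in 1 replicate than in the other. In TKO cells Irx3 and Lhx2 rose less over the same days, and Rax and Six3, which were near 0 in the wild-type cells at day 6, were higher. En2, Gbx2 and Irx3 were above 20 normalised counts in all 18 libraries. The plot of the regulators in each library shows these values for every group. Because whole aggregates were measured, fewer cells of a type and less RNA per cell cannot be told apart in any of them.

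**Figure D1:**
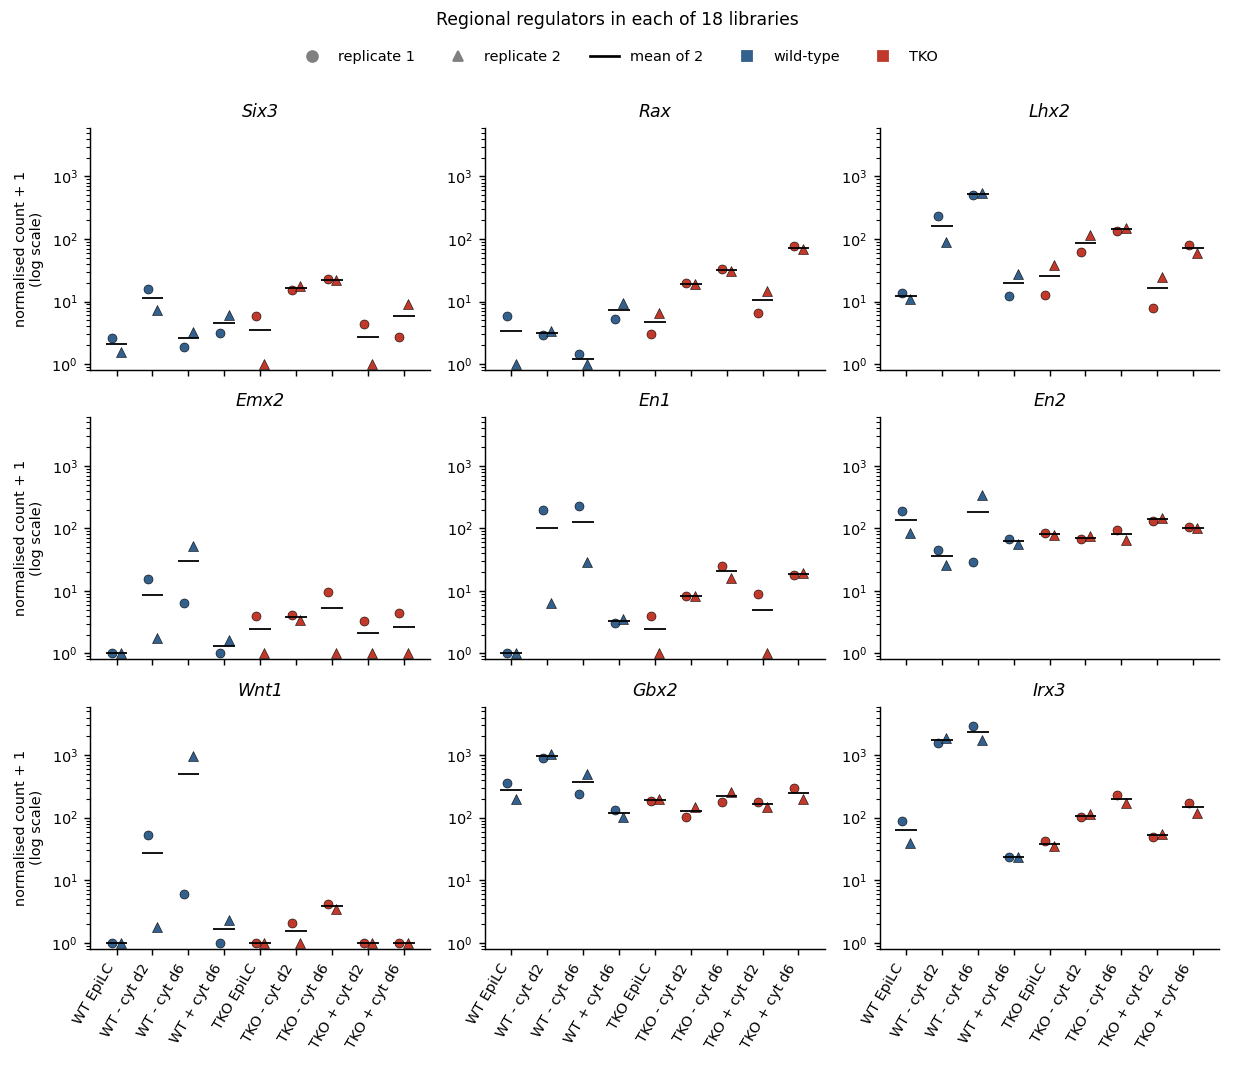
Each panel shows a regulator, with the normalised count plus 1 on a log axis, a circle for replicate 1, a triangle for replicate 2 and a line for the mean of the 2 libraries, over wild-type (blue) and TKO (red) groups. Irx3 and Lhx2 stand highest in wild-type cells without cytokines and Rax stands highest in TKO cells at day 6 with cytokines. The replicates of Wnt1 at day 6, 4.99 and 976, lie furthest apart.

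Among the forebrain regulators, Lhx2, a LIM homeobox factor needed for the eye and the cortex (RefSeq on GRCm38.p6, chr2:38339271-38369737), had the highest level per kilobase of exon in wild-type cells without cytokines at both days. It read 12.9 and 10.01 normalised counts in wild-type EpiLCs, 236 and 87.8 at day 2 and 509 and 539.6 at day 6 without cytokines. The libraries of these 3 groups did not overlap, and the rise continued from day 2 to day 6. The log2 fold change from EpiLCs was 3.895 ± 0.65 (SE) at day 2, with an adjusted p of 3.68e-04, and 5.56 ± 0.67 at day 6, with an adjusted p of 4.58e-06. From day 2 to day 6 it was 1.66 ± 0.53 (adjusted p = 0.0203), a call that was lost without day 2 replicate 2 (1.12, adjusted p = 0.189). Sorted day 6 PGCLCs read 11.1 and 26.4 and were 26.9-fold lower than the aggregates without cytokines (adjusted p = 9.93e-06).

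In TKO EpiLCs Lhx2 read 11.9 and 37.4. Without cytokines TKO cells read 60.2 and 113 on day 2, then 136 and 151 on day 6, and with cytokines 6.80 and 23.6, then 80.6 and 58.5. The TKO libraries without cytokines were thus above their EpiLCs at both days, and those with cytokines at day 2 fell within or below the EpiLC range. The rise to day 6 without cytokines was 5.83-fold in TKO cells (log2 2.54 ± 0.60, adjusted p = 0.00627) against 47.1-fold in wild-type cells, and the TKO call was lost without EpiLC replicate 1 (adjusted p = 0.0649). The difference between the genotypes in this rise was itself tested and was -3.01 ± 0.87 on the log2 scale (adjusted p = 0.0136). It was -2.82 (adjusted p = 0.0713) without wild-type EpiLC replicate 2 and -1.98 (adjusted p = 0.147) without TKO EpiLC replicate 2. At day 6 TKO cells were 3.60-fold lower than wild-type cells without cytokines (adjusted p = 0.00829, and 0.0609 without TKO replicate 1) but 3.64-fold higher than the sorted wild-type cells with cytokines (adjusted p = 0.0418). The last call was lost whichever of the 4 libraries was left out, with adjusted p up to 0.284. At day 2 Lhx2 passed the test between TKO cells with and without cytokines, at -2.50 ± 0.64 (adjusted p = 0.0407), and this call too was lost whichever of the 4 libraries was left out, with adjusted p up to 0.272.

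Six3, a homeobox factor of the most anterior neural plate (chr17:85613608-85626191), was low in every group, with at most 20 counts in a library. It read 14.6 and 6.22 normalised counts in wild-type cells at day 2 and 0.907 and 2.32 at day 6 without cytokines, from 1.61 and 0.556 in EpiLCs. The day 2 libraries lay above both other groups, and 1 or 2 counts a library stood behind the low values. By ratio of the counts Six3 was 12.04 (95% interval 2.97 to 105) times higher at day 2 than in EpiLCs (adjusted p = 0.0342) and 7.63 (95% interval 2.61 to 30.4) times higher at day 2 than at day 6 (adjusted p = 0.0423). These intervals and those below are exact and cover counting error only. Each call was lost without any of 3 of its 4 libraries, the exceptions being day 2 replicate 2 for the first and day 6 replicate 2 for the second, with adjusted p up to 0.277. The second was also lost with DESeq2's Wald test (adjusted p = 0.0632) and with scaling by library size alone (adjusted p = 0.0538).

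TKO cells without cytokines held Six3 at 14.5 and 16.8 normalised counts at day 2 and 21.5 and 21.5 at day 6, the highest of any group. The day 6 libraries were above all 4 EpiLC libraries. At day 6 the ratio of TKO to wild-type cells was 16.5 (95% interval 5.93 to 63.7) (adjusted p = 0.00461), and without wild-type replicate 1 the adjusted p was 0.0509. Against TKO EpiLCs, which read 4.96 and 0, the log2 fold change was 3.004 ± 0.98 (adjusted p = 0.0328), a call kept only without EpiLC replicate 1 and lost without each of the other 3 libraries (adjusted p up to 0.184). In TKO cells with cytokines Six3 read 3.40 and 0 on day 2 and 1.68 and 8.04 on day 6, and the sorted wild-type cells read 2.09 and 5.15. The opposite-strand gene Six3os1 had up to 38 counts in a library. Reads were counted without regard to strand, and pairs that fell on both genes were dropped, an effect on Six3 that was not tested.

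Rax, the retina and anterior neural fold homeobox factor that starts eye formation, was found chiefly in TKO cells. In wild-type cells it read 4.82 and 0 normalised counts in EpiLCs, 1.95 and 2.33 at day 2 and 0.453 and 0 at day 6 without cytokines, and 4.17 and 8.37 in sorted PGCLCs. The wild-type groups without cytokines held 3 counts or fewer in each library. TKO EpiLCs read 1.98 and 5.50. Without cytokines TKO cells read 18.7 and 18.02 on day 2, then 32.3 and 30.3 on day 6. With cytokines they read 5.67 and 13.7 on day 2, then 75.6 and 67.7 on day 6. The 3 highest groups, TKO day 6 with cytokines, TKO day 6 without and TKO day 2 without, overlapped neither each other nor the next group, and the groups after these overlapped in turn, except that the lowest, wild-type day 6 without cytokines, lay below the next.

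Rax was higher in TKO than in wild-type cells by a count ratio of 8.50 (95% interval 3.30 to 27.9) at day 2 (adjusted p = 0.0152) and 96.3 (95% interval 16.6 to 3873) at day 6 without cytokines (adjusted p = 1.53e-04). With cytokines at day 6 the log2 fold change against the sorted wild-type cells was 3.48 ± 0.72 (adjusted p = 0.00380). The call at day 2 was lost without any 1 of the 4 libraries, with adjusted p up to 0.091, the call at day 6 without cytokines kept the same side of the limit throughout, and the call with cytokines was lost without sorted replicate 1 (adjusted p = 0.0738). From TKO EpiLCs to day 6 the log2 fold change was 3.04 ± 0.81 without cytokines (adjusted p = 0.0120) and 4.25 ± 0.80 with them (adjusted p = 0.00124). The first of these was lost without EpiLC replicate 1 (2.47, adjusted p = 0.103) and without day 6 replicate 1 (adjusted p = 0.063). Between TKO cells with and without cytokines at day 6 it was 1.20 ± 0.65 and did not pass (adjusted p = 0.288). The sorted wild-type PGCLCs were also above the day 6 aggregates, by a count ratio of 19.5 (95% interval 3.10 to 809.8) (adjusted p = 0.00865, and 0.0613 without sorted replicate 2). Among other genes of the eye field Six6 read 0 and 1.15 normalised counts in TKO cells at day 6 with cytokines and 14.0 and 3.79 without, and Vax1 read 6.72 and 4.59 with and 5.38 and 6.31 without.

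Emx2, a factor of the dorsal cortex (chr19:59458690-59465357), had 0 counts in both wild-type EpiLC libraries. It read 14.6 and 0.777 normalised counts at day 2 and 5.44 and 52.1 at day 6 without cytokines, and 0 and 0.643 in sorted PGCLCs. High values were thus seen in replicate 1 at day 2 and in replicate 2 at day 6. The day 6 mean was at least 8.87-fold higher than EpiLCs, taking 3 counts a library as the limit for a count of 0 (adjusted p = 0.00909), and without day 6 replicate 2 it was at least 1.68-fold and the call was lost (adjusted p = 0.0645), as it was without EpiLC replicate 2 (adjusted p = 0.0895). Against the sorted PGCLCs the aggregates were higher by a count ratio of 55.6 (95% interval 9.58 to 2233) (adjusted p = 0.0110), a call lost without any of 3 of the 4 libraries (adjusted p up to 0.114) and kept without aggregate replicate 1. Without aggregate replicate 2 the ratio was 16.3 (95% interval 2.41 to 696). In TKO cells it had at most 8 counts in any library, with 8.61 and 0 normalised counts at day 6 without cytokines. Its paralog Emx1 stayed at or below 15.1 normalised counts in all 18 libraries, and the opposite-strand gene Emx2os had 5 counts or fewer.

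Among the midbrain genes, Wnt1, the secreted ligand that maintains the midbrain and the dorsal neural tube (chr15:98789857-98793830), showed the widest spread. It had 0 counts in the EpiLC libraries of both genotypes and in TKO cells with cytokines at both days. In wild-type cells without cytokines it read 51.7 and 0.777 normalised counts at day 2 and 4.99 and 976 at day 6, which is 143-fold between the day 6 replicates on the log2 CPM scale. So day 2 replicate 1 and day 6 replicate 2 were high and the other replicates low. The day 6 mean was at least 151-fold higher than EpiLCs (adjusted p = 0.00560), and without day 6 replicate 2 it was at least 1.54-fold with an adjusted p of 0.101. Against sorted PGCLCs, which read 0 and 1.29, it was higher by a count ratio of 416 (95% interval 115 to 3443) (adjusted p = 0.00610), and against day 6 TKO cells, which read 3.23 and 2.52, by 95.8 (95% interval 40.9 to 296) (adjusted p = 0.0132). Both calls were lost without day 6 wild-type replicate 2, where the ratios were 7.46 (95% interval 1.63 to 69.3) and 1.72 (95% interval 0.550 to 6.30), with adjusted p of 0.242 and 0.731. The second was also lost without TKO replicate 1 or 2 (0.0791 and 0.0803) and by DESeq2's Wald test (0.0929).

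En1, a homeobox factor of the midbrain and of spinal interneurons (chr1:120602487-120607991), had 0 counts in wild-type EpiLCs. It read 193 and 5.44 normalised counts at day 2 and 224 and 27.8 at day 6 without cytokines. Replicate 1 was the high one at both days, unlike Wnt1. The mean was at least 30.6-fold higher than EpiLCs at day 2 (adjusted p = 0.00491) and at least 38.8-fold higher at day 6 (adjusted p = 0.00151), and the day 6 call held whichever of the 4 libraries was left out. The size of the day 6 rise did not, being at least 8.57-fold without day 6 replicate 1 and at least 69.0-fold without day 6 replicate 2. The day 2 call was lost without day 2 replicate 1, where the difference was at least 1.68-fold (adjusted p = 0.123), and without EpiLC replicate 2 (adjusted p = 0.0599). Sorted PGCLCs read 2.09 and 2.57 and were 50.8-fold lower than the day 6 aggregates (adjusted p = 0.00388), and without day 6 replicate 1 the adjusted p was 0.0546.

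TKO EpiLCs read 2.98 and 0 of En1. Without cytokines TKO cells read 7.26 and 7.21 on day 2, then 23.7 and 15.1 on day 6, and with cytokines 7.93 and 0, then 16.8 and 18.4. All 10 TKO libraries were below both wild-type libraries without cytokines at day 6, but not below the sorted PGCLCs of that day. At day 2 without cytokines the TKO libraries fell within the wild-type range, although the fit called them lower at -3.76 ± 1.33 (adjusted p = 0.0423). Without wild-type day 2 replicate 1 the sign turned, to 0.35. The call was also lost without either TKO library (adjusted p = 0.185 and 0.171) and with DESeq2's Wald test (adjusted p = 0.0617). At day 6 the difference was -2.68 ± 1.19 and did not pass (adjusted p = 0.0693).

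En2, the Engrailed paralog of En1 and a marker of the midbrain and cerebellum (chr5:28165696-28172190), had 32 counts or more in every library. It read 191 and 83.4 normalised counts in wild-type EpiLCs, 44.8 and 24.9 at day 2, 27.7 and 340.5 at day 6 without cytokines and 66.1 and 56.0 in sorted PGCLCs. Both the lowest and the highest of the 18 values thus fell in wild-type cells without cytokines. Day 6 exceeded day 2 by 2.34 ± 0.75 on the log2 scale (adjusted p = 0.0219), and without day 6 replicate 2 the sign turned, to -0.37. The call was also lost without day 2 replicate 1 (adjusted p = 0.0557) or day 2 replicate 2 (adjusted p = 0.15). Against EpiLCs the log2 fold change was 0.43 ± 0.70 at day 6 (adjusted p = 0.615), and it was -2.27 (adjusted p = 0.000635) without the same library. TKO EpiLCs read 83.3 and 77.0. Without cytokines TKO cells read 67.5 and 73.3 on day 2, then 94.8 and 63.1 on day 6, and with cytokines 130.3 and 145, then 104 and 98.7. All TKO values were inside the wild-type range, and En2 passed in no comparison of the genotypes with all libraries. Without wild-type day 6 replicate 2 it passed as higher in TKO cells at day 6 without cytokines, at 1.54 (adjusted p = 0.0115).

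The replicates of wild-type cells without cytokines were compared for all genes, since the values of Wnt1, En1, En2 and Emx2 turned on 1 library. At day 6 the median absolute difference between replicates was 0.53 on the log2 CPM scale over the tested genes and 1.06 over the 9 regulators, and the 99th percentile of all genes was 3.15. Wnt1 (-7.16, replicate 1 minus replicate 2) and En2 (-3.54) lay beyond that percentile, and En1 (2.92) and Emx2 (-2.89) just inside it. Irx3 (0.72), Lhx2 (-0.09) and Gbx2 (-1.06) differed by less. Among the other genes tested, replicate 2 was the higher for 10 of 14 WNT ligands and 11 of 18 forebrain regulators, replicate 1 for 15 of 19 hindbrain regulators, and each for 8 of 16 midbrain regulators. Replicate 2 was the higher for Wnt3a with 0.907 and 835 normalised counts, Wnt9a with 9.52 and 512 and Wnt8b with 15.9 and 239.7, for the forebrain and midbrain factors Otx2 with 10.4 and 594 and Otx1 with 8.61 and 292, and for the LIM factor Lhx9, a paralog of Lhx2, with 10.9 and 248. Replicate 1 was the higher for the boundary factors Pax2 with 1192 and 292, Pax5 with 534 and 110.0 and Pax8 with 411 and 45.2, for the ventral factor Nkx6-1 with 1382 and 62.5 and for Sp8 with 1480.1 and 196. These genes were chosen after their values were seen. The libraries had 33893720 and 13195593 counts, and the part of depth in the split was not tested.

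At day 2 the same comparison gave a median difference of 0.27 over all genes and 1.003 over the regulators. En1 (4.71), Wnt1 (4.34) and Emx2 (2.64), each higher in replicate 1, lay beyond the 99th percentile of 1.97. Day 6 TKO cells without cytokines had a median difference of 0.21 over all genes and 0.43 over the regulators, of which Emx2 alone lay beyond the 99th percentile, on 8 and 0 counts.

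**Figure D2:**
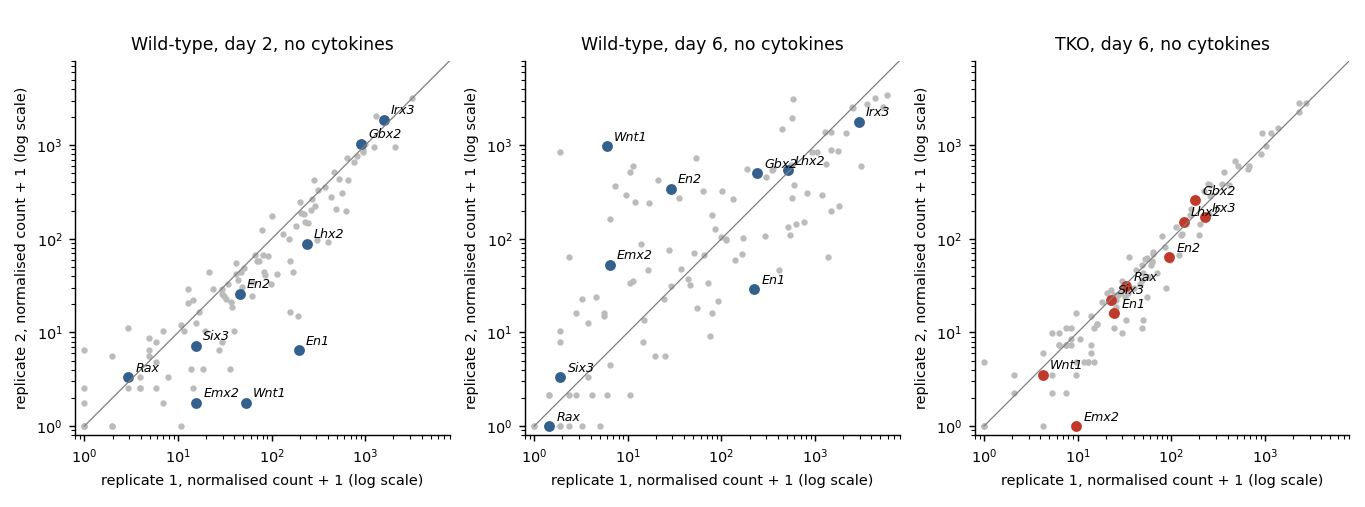
Replicate 2 is plotted against replicate 1 as normalised counts plus 1 on log axes, for wild-type cells without cytokines at day 2 and day 6 and for TKO cells without cytokines at day 6, with the regulators named, the genes of the other lists in grey and the line of equality. In wild-type cells Wnt1, En1 and Emx2 lie far from the line, and so does En2 at day 6. Wnt1 and Emx2 lie below the line at day 2 and above it at day 6. Irx3 lies near the line in all panels.

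Windows of 250 bases before a RefSeq start were read for 7 of the 9 genes, En2 and Rax having no entry. They held between 10 (Six3) and 25 (Lhx2) CpG dinucleotides, the sites that TET enzymes act on when methylated, where the median of 32851 RefSeq promoter windows of mouse was 6. The window of Six3 (chr17:85620584-85620833) lay inside the gene span given above, and the Lhx2 window with 25 CpG ended just inside the Lhx2 span. Lhx2 had a further window (chr2:38351058-38351307, 24 CpG) that overlaps an exon. The Lhx2 window with 25 CpG and the Wnt1 window, which overlap no exon of GENCODE vM21, are shown. In the day 6 wild-type replicates without cytokines Lhx2 had the most and Wnt1 the least alike values of the 9 genes. Each CpG is in capitals, 5′ to 3′ on the coding strand of GRCm38.p6, at chr2:38339031-38339280 for Lhx2 and chr15:98789607-98789856 for Wnt1.
Lhx2: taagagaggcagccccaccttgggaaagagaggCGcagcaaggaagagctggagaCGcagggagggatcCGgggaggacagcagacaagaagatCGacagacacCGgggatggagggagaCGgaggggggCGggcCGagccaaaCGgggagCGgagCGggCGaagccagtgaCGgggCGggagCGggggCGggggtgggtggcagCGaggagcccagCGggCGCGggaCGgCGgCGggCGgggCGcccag
Wnt1: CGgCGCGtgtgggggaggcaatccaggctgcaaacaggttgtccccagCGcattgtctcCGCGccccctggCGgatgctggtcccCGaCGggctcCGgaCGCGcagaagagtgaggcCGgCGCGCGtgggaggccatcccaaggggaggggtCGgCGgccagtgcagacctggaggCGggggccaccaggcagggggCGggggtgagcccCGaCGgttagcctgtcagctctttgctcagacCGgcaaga
Both windows are dense in CpG, with 25 and 23 sites. The motifs CTTTGAT (bound by TCF and LEF), TAATTA (homeodomain) and TTCNNNGAA (STAT), searched on both strands, had no match in the windows of the 7 genes, and they occur in 3.21%, 4.84% and 7.02% of all windows. No methylation was measured in these libraries.

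Gbx2, which with Otx2 positions the border of midbrain and hindbrain (chr1:89927962-89931176), had the highest level of the 9 genes per kilobase of exon in wild-type EpiLCs, 131 normalised counts. Wild-type EpiLCs read 359.9 and 198 normalised counts, day 2 cells without cytokines 907 and 1032, day 6 cells 239.8 and 501 and sorted PGCLCs 133 and 99.7. The day 2 libraries were above every other library, and the sorted PGCLCs were below every other wild-type library. The log2 fold change was 1.87 ± 0.35 from EpiLCs to day 2 (adjusted p = 9.67e-04) and -1.44 ± 0.35 from day 2 to day 6 (adjusted p = 0.00400), which left 0.42 ± 0.35 from EpiLCs to day 6 (adjusted p = 0.307). Sorted PGCLCs were 3.07-fold lower than the day 6 aggregates (adjusted p = 0.00120) and 2.29-fold lower than EpiLCs (adjusted p = 0.0153). The last call was lost without EpiLC replicate 1 (-0.74, adjusted p = 0.184), without sorted replicate 2 (adjusted p = 0.127), and with scaling by library size alone (-0.79, adjusted p = 0.0657).

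TKO cells had no such high value at day 2. They read 181 and 195 in EpiLCs. Without cytokines they read 103 and 148 on day 2, then 178 and 259 on day 6, and with cytokines 177 and 148, then 294 and 197. TKO cells at day 2 were 7.94-fold lower than wild-type cells (log2 -2.99 ± 0.37, adjusted p = 3.03e-05), and the change from EpiLCs to day 2 differed between the genotypes by -2.47 ± 0.51 (adjusted p = 0.00521). At day 6 the difference was -0.74 ± 0.35 without cytokines (adjusted p = 0.0872) and 1.06 ± 0.36 with them (adjusted p = 0.0512), and neither passed. The summed level of the 10 genes of the LIF and STAT3 list was 2264 and 2058 normalised counts in wild-type cells at day 2 without cytokines. In sorted PGCLCs it was 21766 and 21806. Within these sums Tfcp2l1, also a marker of naive pluripotency, read 77.0 and 122 at day 2 and 7564 and 8131 in the sorted cells. Between these PGCLCs and the day 6 aggregates 9 of the 10 were higher, beside 29.6% of all genes, and 0 lower, with a median log2 fold change of 3.12. From wild-type EpiLCs to day 2 without cytokines, where Gbx2 rose, the list moved in both directions. Socs3 (log2 2.01 ± 0.33) and Junb (1.15 ± 0.26) passed as higher. Pim1 (-1.54 ± 0.26) and Pim3 (-0.69 ± 0.20) passed as lower, and the other genes of the list did not pass. A relation of the list to Gbx2 was not tested.

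Irx3, an Iroquois homeobox factor of the posterior forebrain, hindbrain and spinal cord (chr8:91798511-91801654), reached the highest level of the 9 genes per kilobase. It read 86.7 and 38.9 normalised counts in wild-type EpiLCs, 1574 and 1872 at day 2 and 2934 and 1776 at day 6 without cytokines, but 22.9 and 22.5 in sorted PGCLCs. All libraries without cytokines were above all EpiLC libraries, days 2 and 6 overlapped, and the sorted cells were below every other library analysed. The rise from EpiLCs was 30.4-fold by day 2 (log2 4.93 ± 0.35, adjusted p = 3.10e-07) and 40.2-fold by day 6 (log2 5.33 ± 0.36, adjusted p = 1.43e-08). Sorted PGCLCs were 100.4-fold lower than day 6 aggregates (log2 -6.65 ± 0.38, adjusted p = 2.58e-09) and 2.50-fold lower than EpiLCs (adjusted p = 0.00988), and this smaller difference was lost without EpiLC replicate 1 (-0.75, adjusted p = 0.135) or sorted replicate 2 (adjusted p = 0.0569).

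TKO EpiLCs read 40.7 and 34.1 of Irx3. Without cytokines TKO cells read 101 and 112 on day 2, then 227 and 170.4 on day 6, and with cytokines 48.7 and 53.4, then 169.7 and 119. Without cytokines the TKO libraries were above their EpiLCs at both days yet below every wild-type library of the same day. TKO cells were 16.6-fold lower than wild-type cells at day 2 (adjusted p = 5.26e-07) and 11.7-fold lower at day 6 (adjusted p = 3.11e-07). The change from EpiLCs differed between the genotypes by -3.44 ± 0.48 at day 2 (adjusted p = 3.22e-04) and -2.93 ± 0.48 at day 6 (adjusted p = 2.23e-04). Within TKO cells Irx3 nonetheless rose 5.28-fold to day 6 without cytokines (adjusted p = 2.06e-04) and 3.85-fold with them (adjusted p = 8.83e-04). Against the sorted wild-type cells at day 6 with cytokines TKO cells were 6.27-fold higher (log2 2.65 ± 0.35, adjusted p = 1.69e-04). Each call on Irx3 in this paragraph held whichever single library was left out.

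The paralogs were read beside it. Irx5 read 22.5 and 11.1 normalised counts in wild-type EpiLCs, 1485 and 888 at day 6 without cytokines and 61.4 and 55.5 in TKO cells at that time, and Irx1 in the same order read 1.61 and 0.556, then 186 and 559, then 15.1 and 11.4. Irx2 read 3.21 and 8.89 in wild-type EpiLCs and 569.8 and 1971 at day 6, and in TKO cells at day 6 130.3 and 112 without and 212 and 250.3 with cytokines. All 3 were thus lower in TKO than in wild-type libraries of this day without cytokines, with no overlap. Gbx1, the paralog of Gbx2, read 164 and 67.2 in wild-type and 8.61 and 3.79 in TKO cells at day 6 without cytokines.

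The numbers of regulators that passed were read against the share of all genes that did, and a share near that background says nothing particular of the regulators. From EpiLCs to day 2 without cytokines 5 of 9 passed, all higher, beside 34.4% of all genes tested in either direction. To day 6 it was 5 of 9, all higher, beside 60.7% in either direction, 31.7% higher and 29% lower. From day 2 to day 6 Lhx2 and En2 were higher and Gbx2 and Six3 lower, 4 of 9 beside 39.5%, and a fit of only the libraries compared called 0. In sorted PGCLCs against EpiLCs 2 of 9 passed, Gbx2 and Irx3, beside 40.6%. In sorted PGCLCs against the day 6 aggregates 7 of 9 passed, 6 lower and Rax higher, beside 58.2% of all genes, 29.6% higher and 28.6% lower. Markers of the sorted type moved with this comparison. The 6 germ cell markers were all higher in the sorted cells, at summed levels of 9210.0 and 7399 against 108 and 112 normalised counts. The 8 neural progenitor markers were all lower, at 641 and 611 against 28403 and 44562, and their part in the result was not tested.

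Between the genotypes no regulator passed in EpiLCs, beside 10.8% of all genes, 0 had an unadjusted p below 0.05, and DESeq2's Wald test also called 0. At day 2 without cytokines 4 of 9 passed, Irx3, Gbx2 and En1 lower and Rax higher in TKO cells, beside 32.8%. At day 6 without cytokines 5 of 9 passed, Irx3, Lhx2 and Wnt1 lower and Rax and Six3 higher, beside 55.4% of all genes, 28.5% higher and 26.9% lower. With cytokines at day 6 Irx3, Lhx2 and Rax were higher in TKO cells than in the sorted wild-type cells, 3 of 9 beside 18.9%, with 11.3% of genes higher and 7.53% lower. In TKO cells without cytokines at day 6 all 8 neural progenitor markers were lower than in wild-type cells, with summed levels of 1785 and 1549 against 28403 and 44562, as were all 8 neuron markers, at 3253 and 4396 against 52577 and 34582. None of the 8 progenitor markers was at 0 in these 4 libraries. Other markers were higher in TKO cells, 6 of 6 of naive pluripotency, 5 of 6 of germ cells, 4 of 4 tested of surface ectoderm, 4 of 5 tested of mesoderm, and 3 of 5 each of neural crest and endoderm, with 1 endoderm marker lower, while 2 of 5 of formative pluripotency were higher and 2 lower. In TKO cells with cytokines, against the sorted cells, 5 of 6 germ cell markers were lower and 0 higher, at summed levels of 3030.3 and 3638 against 9210.0 and 7399. Of the 8 neural progenitor markers 2 were higher and 1 lower, at 1851 and 1777 against 641 and 611, and of the 8 neuron markers 2 were higher and 0 lower, at 6036 and 3266 against 1012 and 1099. Most of the neuron sum lay in Stmn2, with 4351 and 2392 against 526 and 665, and Tubb3, with 1544 and 667 against 314 and 261. Stmn2 already read 1472 and 1567 in TKO EpiLCs. Dcx read 1.68 and 1.15 against 0.695 and 2.57, and Neurod4 0 and 1.15 against 0.695 and 0.643. Of other markers 3 of 5 of endoderm, 2 of 4 tested of surface ectoderm, 2 of 5 tested of mesoderm, 2 of 5 of formative pluripotency, 1 of 5 of neural crest and 0 of 6 of naive pluripotency were higher, and 1 of endoderm was lower. The part of all these markers in the differences of the regulators was not tested.

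**Figure D3:**
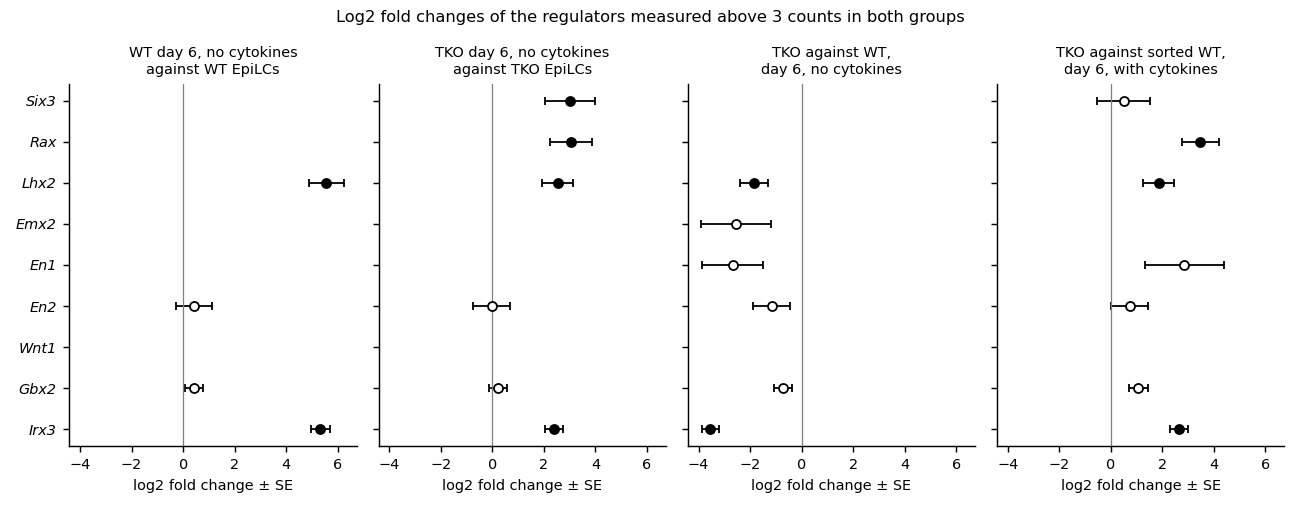
Log2 fold changes with SE from the fit of all genes are drawn for the regulators in 4 comparisons, filled where the adjusted p was below 0.05. Pairs in which a group had 3 counts or fewer in each library are left out, among them Wnt1 in all panels and Rax and Six3 in the panels of wild-type cells without cytokines. Irx3 and Lhx2 lie to the right of 0 in both panels of change from EpiLCs, left of 0 in TKO against wild-type cells without cytokines and right of 0 against the sorted cells.

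Over time TKO cells without cytokines had 4 of 9 regulators called from EpiLCs to day 6, Irx3, Lhx2, Rax and Six3, all higher, beside 28% of all genes in either direction. With cytokines Irx3 and Rax were called, 2 of 9 beside 25.3%. Between TKO cells with and without cytokines few of all genes passed, so the low numbers say nothing particular of the regulators. At day 2 Lhx2 alone was called, 1 of 9 beside 4.52%, and at day 6 none was, beside 5.61%, with 1 regulator at an unadjusted p below 0.05 and 0 called by DESeq2's Wald test. Irx3 differed by -0.46 ± 0.31 between day 6 TKO cells with and without cytokines (adjusted p = 0.412), where in wild-type cells the difference was -6.65. The difference between these cytokine effects was added after the values had been seen, and it passed for Irx3 at 6.19 ± 0.47 (adjusted p = 1.58e-07), Lhx2 at 3.71 ± 0.80 (adjusted p = 0.00173), Gbx2 at 1.80 ± 0.50 (adjusted p = 0.00946) and En1 at 5.53 ± 1.94 (adjusted p = 0.0327), 4 of 9 beside 42.9% of all genes. The wild-type arm of this difference holds the sorted cells. The call on En1 was lost without any of 7 of the 8 libraries, all but wild-type day 6 replicate 2 without cytokines (adjusted p up to 0.157), and that on Gbx2 without TKO replicate 1 with cytokines (adjusted p = 0.0503). The difference between the genotypes in the change over time without cytokines passed for 3 of 9 regulators at day 6, Irx3, Lhx2 and Rax, beside 37%, and for 2 of 9 at day 2, Irx3 and Gbx2, beside 12.3%. Rax differed by 4.88 ± 1.79 (adjusted p = 0.0434), a call lost without any of 6 of the 8 libraries, all but wild-type EpiLC replicate 2 and TKO EpiLC replicate 2, and at 1.13 (adjusted p = 0.84) without wild-type EpiLC replicate 1.

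Levels of different genes were compared per kilobase of exon. In wild-type cells without cytokines at day 6 Irx3 led with a mean level of 853 normalised counts per kilobase, followed by Wnt1 at 206, Gbx2 at 174 and Lhx2 at 156. En2 had 52.0, En1 48.0 and Emx2 9.87, and Six3 and Rax were below 1. Irx3 was first in both replicates, and the order of the others depended on the replicate, with Lhx2 before Gbx2 in replicate 1 and Wnt1, then Gbx2, before Lhx2 in replicate 2. In TKO cells at the same time Gbx2 was first at 102, before Irx3 at 72.0, Lhx2 at 42.7 and En2 at 22.3, and Rax had 12.1.

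The other genes of the same regions place these values. Of 23 other forebrain and eye field regulators 18 were tested, and from wild-type EpiLCs to day 6 without cytokines 14 were higher and 3 lower, beside 31.7% and 29% of all genes, with a median log2 fold change of 6.08, or 4.24 with the 11 genes at or under 3 counts in a group set to their fold against 3 counts a library, where the median of all genes was 0.05. The largest changes were in Nr2f1 with 3564 and 2727 normalised counts at day 6, Nr2f2 with 2549.6 and 2519.9, Dbx1 with 1814 and 225 and Lhx5 with 1753 and 857, which are used in several parts of the neural tube. Some others of the list had low counts. Six6, the paralog of Six3, read 1.81 and 1.158, Hesx1 read 0.453 and 1.158 and Nkx2-1 read 1.36 and 1.158. Lhx2 was thus measured in these cells beside low counts of Six3, Rax and Six6, so that they are not called forebrain here.

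Of 17 other midbrain and boundary regulators 16 were tested, and 11 were higher and 2 lower at day 6 than in EpiLCs, with a median of 3.05, unchanged with the limits. Pou3f2 changed by 9.30 ± 0.67 on the log2 scale, Pax2, which acts upstream of En1 and En2, by 7.20 ± 0.74 and Pax5 by 6.57 ± 1.03, and Lmx1a, from 3 counts or fewer, reached 62.6 and 325 normalised counts. Otx2, the partner that opposes Gbx2 and also a gene of EpiLCs, read 1158 and 1718 in EpiLCs and 10.4 and 594 at day 6. Fgf8, the signal of the border, read 261 and 203 at day 2 and 1.36 and 62.5 at day 6. Of 21 hindbrain and spinal cord regulators 19 were tested, and 16 were higher and 0 lower, with a median of 4.52, or 4.12 with the limits. Hoxa2, a gene of the hindbrain, read 1056 and 841 at day 6, Hoxb2 922 and 850.0, Hoxb1 562 and 269.8 and Hoxb4 91.6 and 20.8, each from 3 counts or fewer in EpiLCs.

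In TKO cells at day 6 without cytokines 11 of the 18 forebrain genes were lower than in wild-type cells and 2 higher, 9 of the 16 midbrain genes lower and 2 higher, and 13 of the 19 hindbrain genes lower and 4 higher, beside 26.9% of all genes lower and 28.5% higher. The median log2 fold changes were -2.69, -1.90 and -3.79, beside 0.01 for all genes, and were the same with the limits. Against the sorted wild-type cells with cytokines, 10 of the 19 hindbrain genes were higher and 0 lower in TKO cells, with 2 of 18 forebrain genes higher and 0 lower and 4 of 16 midbrain genes higher and 2 lower, beside 11.3% of all genes higher and 7.53% lower, so that the share of forebrain genes was near that of all genes.

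**Figure D4:**
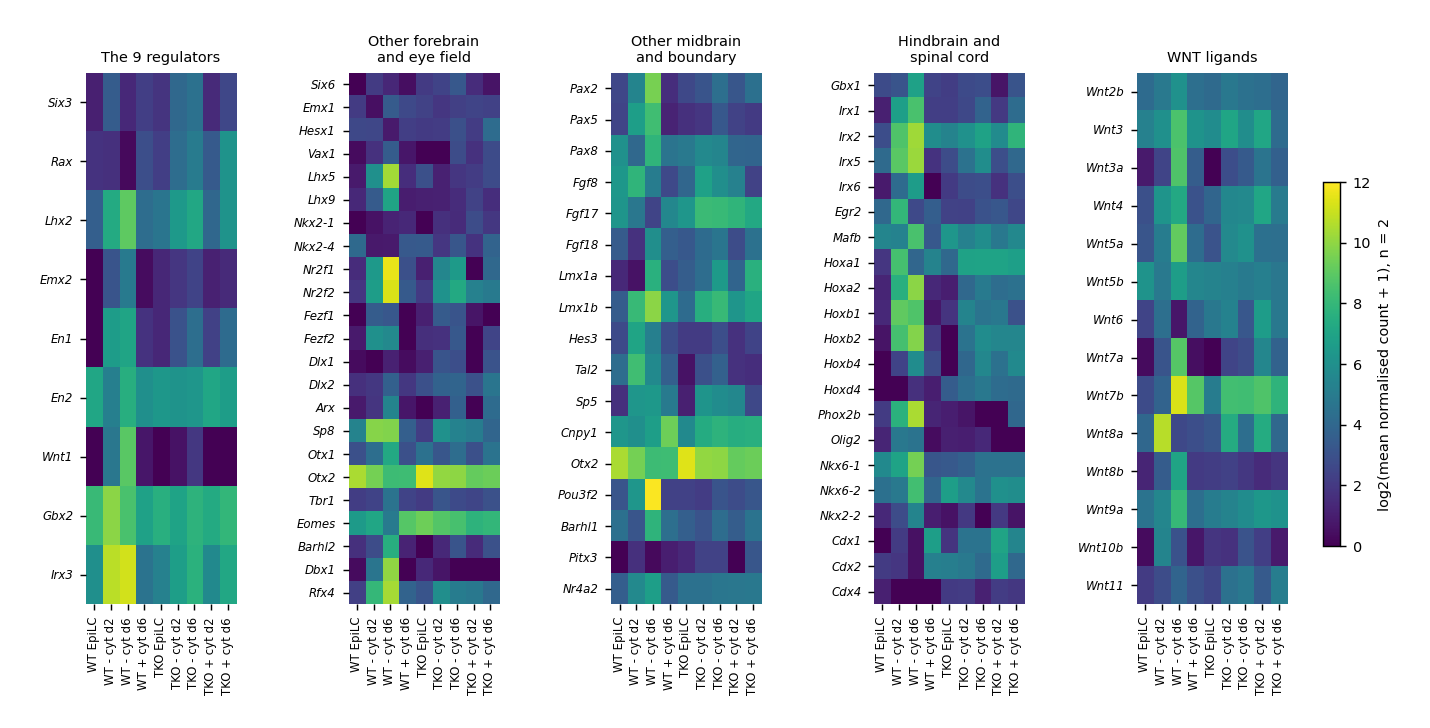
Colour gives log2 of the mean normalised count plus 1 (n = 2) for each gene (rows) in each group (columns), in blocks for the 9 regulators, the other forebrain, midbrain and hindbrain lists and the WNT ligands. The column of wild-type cells at day 6 without cytokines is the brightest for Irx3, Irx2, Irx5, Nr2f1, Nr2f2, Pou3f2 and Wnt7b, while Six6, Hesx1, Nkx2-1, Six3 and Rax stay dark there.

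Genes of the WNT pathway were listed beside Wnt1. Of the other 14 ligands 11 were higher and 0 lower at day 6 than in EpiLCs of wild-type cells, with a median of 3.59, or 3.48 with the limits, among them Wnt7b at 9.28 ± 0.46 (log2), Wnt7a with 765 and 149 normalised counts at day 6, Wnt3a with 0.907 and 835 and Wnt8b with 15.9 and 239.7. Wnt8a was highest at day 2, with 1296 and 2066, and read 0.907 and 9.26 at day 6. Of 12 antagonists 11 were tested, with 7 higher and 2 lower (median 2.62, or 2.05 with the limits), Draxin by 6.26 ± 0.38 and Sfrp1 by 3.67 ± 0.56 among the higher, Frzb with 629.7 and 144 normalised counts and Dkk2 with 2.27 and 22.0. Of 12 canonical targets 5 were higher and 2 lower, beside 31.7% and 29% of all genes (median 2.64, or 1.02 with the limits). Axin2, the feedback target, changed by 3.82 ± 0.57 and read 583 and 3077 at day 6. Lgr5 changed by 5.05 ± 0.81 and Nkd1 by 3.89 ± 0.47, while Sp5 read 5.44 and 163. The 2 lower targets were Lef1 at -3.47 ± 0.44 and Tcf7 at -3.19 ± 0.31. Between these day 6 replicates 8 of the 12 targets were higher in replicate 2, Axin2, Sp5 and Nkd1 among them. In replicate 1 4 were higher, such as Ccnd1 with 4412 and 3158 and Lgr5 with 111 and 99.6. Of the 12 only 1 differed by more than the 99th percentile of all genes, and a link with Wnt1 was not tested. In TKO cells at day 6 without cytokines 8 of the 14 other ligands were lower than in wild-type cells and 1 higher, and 4 of the 12 targets were higher and 4 lower, beside 28.5% of all genes higher and 26.9% lower, so that the shares of the targets were near those of all genes.

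The genes whose pattern was most like each regulator were taken over the 9 group means, which share libraries and depth, so the values are descriptions. The minimum mean count of 20 was set for the partner genes. Rax, Six3, Emx2 and Wnt1 had few or no counts in several groups, which limits their correlations. Some group means of Wnt1, En1 and Emx2 also rested mainly on a single library. Wnt1 read 4.99 and 976 normalised counts in wild-type cells at day 6 without cytokines. Irx3 was most like its neighbour in the Iroquois cluster, Irx5 (Pearson r = 0.986), with Tspan12 and Mn1 next. Lhx2 was most like Hipk2 (0.990), Olfml2b and Sdk2, En1 like Bcr (0.985), Mfhas1 and St3gal1, Wnt1 like Bbip1 (0.993), St18 and Amn1, and Emx2 like Zfp768 (0.984), Irx6 and Senp7. Gbx2 was most like St6gal1 (0.938), Bola3 and Arhgef17, Six3 like Olfml3 (0.951), Zfp207 and Rom1, and En2 like Rchy1 (0.922), Cltb and Mtres1. Rax was most like Naalad2 (0.987), Cacna1s and Usp17lc, of which the last belongs to a family of near-identical genes whose counts are uncertain because the counting left out reads that map to several places. Among the regulators themselves Lhx2 and En1 were most alike (0.959) and Six3 and En2 least (-0.58).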

How the data were processed

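RNA-seq libraries of 9 groups with 2 replicates each were analysed from the deposited table of counts. Per the labels and the paper's methods, the authors depleted ribosomal RNA, trimmed reads with Trim Galore 0.5.0 and cutadapt 1.16, aligned them to mm10 with STAR 2.7.1a and counted read pairs on refGene exons with featureCounts (Subread 1.5.2) without using strand. The deposited counts were not normalised, and 33 rows that hold command lines in place of values were left out. Read pairs that fell on several genes or places were not counted. The ribosomal locus Rn45s held 16.2% to 47.6% of the counts of a library and stayed in the library sizes.

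Genes were filtered with filterByExpr by group, scaled by TMM and fitted with edgeR 4.0.16 (R 4.3.3, limma 3.58.1) as 9 group means over 18 libraries. The quasi-likelihood test was used with Benjamini-Hochberg adjustment over 16582 genes, and SE is the log2 fold change over the square root of F, an approximation. The filter, test and folds were first tested on simulated data. Levels are counts divided by size factors of DESeq2 1.42.0. Against a group at 0 the fold was taken from 3 counts per library, and against 1 to 3 counts a library the ratio of summed counts is given with an exact 95% interval (scipy 1.17.1). With 2 libraries a group an exact permutation test of a single gene cannot reach 0.05, so p-values rest on the spread shared across genes. Per the paper the replicates were biological.

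The regulators, the lists of other genes and the comparisons were chosen with earlier results of these data known. Named genes were the 9 regulators, for each the 3 tested genes with the highest correlation over group means of log2 CPM (prior count 2, mean count of 20 or more), up to 4 genes of each list with the largest change from EpiLCs to day 6 without cytokines among those called, and the paralogs. Others were named after their values were seen. Lists of WNT, LIF and regional genes and of markers are from general knowledge, and 1 gene of the forebrain list is not reported here and was left out of its counts. Genes overlapping a regulator on the other strand were Six3os1 and Emx2os among those in the table. Exon lengths are unions of basic protein-coding transcripts of GENCODE vM21, and gene positions and promoter windows are from RefSeq (GRCm38.p6). The genotype by cytokine difference at day 6 was added after the data were seen. Alternatives were RLE factors, library size alone, no filter, DESeq2's Wald test, the replicate number as a block, only the libraries compared, an added limit on fold change and leaving out each library.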

Additional observations from a re-analysis of the deposited data

Results flagged for a closer look

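The effects below differed between genotypes by a test of the difference itself, with edgeR's quasi-likelihood test and adjustment over all genes. In the change from EpiLCs to day 6 without cytokines, TKO minus wild-type, Rax differed by 4.88, Lhx2 by -3.01 and Irx3 by -2.93 on the log2 scale. In the change from EpiLCs to day 2 Gbx2 differed by -2.47 and Irx3 by -3.44. In the effect of cytokines at day 6, a difference added after the values had been seen and in which the wild-type cells with cytokines were sorted, Lhx2 differed by 3.71, En1 by 5.53, Gbx2 by 1.80 and Irx3 by 6.19. The difference for Rax rested on 3 and 0 counts in wild-type EpiLCs and 1 and 0 counts at day 6, and was 1.13 (adjusted p = 0.84) without wild-type EpiLC replicate 1. That for En1 lost its call without any of 7 of the 8 libraries. Groups of 2 libraries allow no search for outlying samples.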

How the results depend on the processing

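The number of regulators called stayed within 1.5 times of the reported one in all 16 comparisons with RLE factors and with the replicate number as a block. With no filter on low counts it was 8 for wild-type day 2 without cytokines against EpiLCs, 4 for TKO day 6 with cytokines against EpiLCs and 2 for cytokines in TKO cells at day 2, where 5, 2 and 1 are reported. With an added limit of 2 on the log2 fold change, day 6 against day 2 in wild-type cells had 2, sorted PGCLCs against EpiLCs 0 and TKO day 6 with cytokines against EpiLCs 1. With only the libraries compared, the numbers were 0 for day 6 against day 2 in wild-type cells, 3 for day 6 without cytokines against EpiLCs, 4 for sorted PGCLCs against day 6 aggregates, 5 for TKO against sorted wild-type cells, 4 for cytokines in TKO cells at day 2 and 1 at day 6. This setting has fewer libraries to estimate the spread. With library size alone, which moved the median of all genes by up to 0.73 on the log2 scale (0.05 as reported, wild-type day 6 without cytokines against EpiLCs), sorted PGCLCs against EpiLCs had 1, and cytokines in TKO cells 3 at day 2 and 1 at day 6. DESeq2's Wald test gave 2 for cytokines in TKO cells at day 2. The cause of these changes was not tested.

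Leaving out 1 library at a time, the numbers called ranged from 3 to 5 for wild-type day 2 without cytokines against EpiLCs, 1 to 4 for day 6 against day 2, 4 to 7 for day 6 against EpiLCs, 0 to 2 for sorted PGCLCs against EpiLCs and 5 to 7 against day 6 aggregates. Between genotypes they were 0 in EpiLCs, 2 to 3 at day 2, 3 to 7 at day 6 without and 1 to 2 with cytokines. In TKO cells they were 2 to 3 from EpiLCs to day 6 without or with cytokines, and 0 for cytokines at either day. For the differences between genotypes they were 2 to 3 to day 6, 2 to day 2 and 2 to 4 for cytokines. The sign of the log2 fold change turned in these runs for En2, from -0.37 to 3.26 in day 6 against day 2, -2.27 to 1.36 in day 6 against EpiLCs (-0.06 without EpiLC replicate 2), -2.44 to 1.19 in sorted PGCLCs against aggregates and -2.09 to 1.54 between genotypes at day 6 without cytokines. It also turned for Irx3 in day 6 against day 2 (-0.00385 to 0.71), Gbx2 in day 6 against EpiLCs (-0.20 to 0.88) and En1 between genotypes at day 2 (-4.75 to 0.35).

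The labels do not say that a replicate number links samples of different groups. Over 36 pairs of groups the correlation of the deviations of same-numbered samples ran from -0.156 to 0.182 with a median of 0.0118, and 7 were over 0.1, among them days 2 and 6 without cytokines in wild-type (0.166) and in TKO cells (0.166), so a link within some pairs was not settled. With the replicate block, 3 calls on a regulator passed the limit no more, Six3 in day 6 against day 2 (-2.84, adjusted p = 0.0505), En1 between genotypes at day 2 (-3.099, adjusted p = 0.0515) and Rax in the genotype difference to day 6 (4.85, adjusted p = 0.054), and numbers called stayed within 1.5 times. Genes with 3 counts or fewer in a group, which Six3, Rax, Emx2 and Wnt1 had in most of their comparisons, are limited by depth.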
